A study of Homo sapiens with 10 samples.

Results

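The genes described here are 44 genes of autophagy and the lysosome, chosen by name from the 20289 genes of an RNA sequencing table of human pancreatic ductal adenocarcinoma cells. Earlier results of these data were known when they were chosen. All 44 had a row in the table, and all 44 passed the low-value filter of at least 1 FPKM in at least 2 libraries, which 13077 genes passed in all. The series looks for regulators of ferroptosis, in which iron drives the peroxidation of membrane lipids until the cell dies. Its agent was imidazole ketone erastin (IKE), an erastin derivative that blocks cystine uptake. PANC-1 with 1 µM IKE had 4 libraries, PANC-1 with 0.1% DMSO had 2, CFPAC-1 with 10 µM IKE had 2 and CFPAC-1 with 0.1% DMSO had 2, all taken after 24 h. PANC-1 and CFPAC-1 are established cell lines of this cancer, so a difference between them is a difference between 2 lines. In every group dead cells and debris were removed and the surviving cells were collected, so a change of RNA per cell and a change of which cells were left cannot be told apart.

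Autophagy delivers cytoplasmic material to the lysosome. A starter kinase and a lipid kinase complex begin a membrane cup, conjugation enzymes attach ATG8 proteins to it, cargo receptors link ATG8 proteins to what is degraded, and the closed vesicle fuses with the acidic lysosome, whose enzymes break its content down. The transcription factors TFEB, TFE3 and MITF switch on many of these genes, and in cultured cells autophagy of ferritin, which frees iron, is known to promote ferroptosis. The mRNA levels given here say nothing of the flow of material through the pathway.

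Levels are in FPKM, a measure of fragments corrected for the length of the transcript and for the size of the library, and changes are log2 fold changes of FPKM + 1 with Benjamini-Hochberg adjusted p-values from limma over all tested genes, with a threshold of 0.05. A gene is said to rise or fall, or to be called, if it passed that threshold. The FPKM of a library summed to between 405937 and 472665, of which 2.65% to 5.27% came from mitochondrially encoded mRNAs (PANC-1 IKE replicate 3 was at the top). The read depth is unknown. The epithelial keratin genes KRT8, KRT18 and KRT19 were at 721 FPKM or more in every library. Other epithelial genes were far lower in PANC-1, with KRT7 at 4.39 to 6.15 FPKM in PANC-1 and 271 to 330.4 FPKM in CFPAC-1, EPCAM at 8.58 to 11.06 FPKM in PANC-1 and 152 to 158 FPKM in CFPAC-1, and CDH1 and MUC1 at 12.8 to 19.8 FPKM in PANC-1 and 88.8 to 286 FPKM in CFPAC-1. The leukocyte gene PTPRC and the acinar gene CPA1 stayed under 0.1 FPKM in all, and the acinar genes PRSS1 and CELA3A reached at most 0.12 and 0.27 FPKM. The endothelial gene PECAM1 reached 18.5 to 21.3 FPKM in CFPAC-1, against at most 0.08 FPKM in PANC-1, but the endothelial gene VWF at most 0.03 FPKM in any library. The collagen gene COL1A1 was at 17.9 to 24.9 FPKM in PANC-1 and 3.56 to 5.64 FPKM in CFPAC-1. The stromal genes COL1A2, DCN and PDGFRB reached at most 0.24, 0.11 and 0.47 FPKM. VIM, a mesenchymal gene, was at 1910 to 2083 FPKM in PANC-1 and at 529 to 607 FPKM in CFPAC-1.

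The promoters of 5 members are shown. The factors TFEB, TFE3 and MITF bind the E-box core CACGTG and its extended form, the CLEAR element (GT, the E-box core, AC). The only 2 members called with IKE, MAP1LC3B and CTSL, hold the antioxidant response core TGACNNNGC, as do 16.1% of all genes with a window. Whether that motif has to do with their calls was not tested. RefSeq (GRCh38.p14) gave the window from 250 bases before to 50 bases after the start of 36 of the 44 members, all but ATP6V1A, ATP6V1H, CTSB, HEXA, LAMP2, MAP1LC3A, RB1CC1 and UVRAG. RefSeq's starts can lie inside the GENCODE 29 extent of a gene. The sequences run 5′ to 3′ on the strand of the gene, and capitals mark the motif named for each. Those of MAP1LC3B (chr16:87392216-87392335, plus strand) and CTSL (chr9:87725999-87726118, plus strand) have the antioxidant response core in capitals, which in CTSL lies on the opposite strand. Those of MCOLN1 (chr19:7522504-7522623, plus strand), CTSD (chr11:1763928-1764047, minus strand) and LAMP1 (chr13:113297029-113297228, plus strand) have the E-box core in capitals, and in MCOLN1 also the CLEAR element, which contains it. The LAMP1 stretch holds 5 of the 6 E-box cores in its window.
MAP1LC3B: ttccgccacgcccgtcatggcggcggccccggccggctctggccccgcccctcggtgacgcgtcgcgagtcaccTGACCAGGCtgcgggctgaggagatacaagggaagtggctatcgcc
CTSL: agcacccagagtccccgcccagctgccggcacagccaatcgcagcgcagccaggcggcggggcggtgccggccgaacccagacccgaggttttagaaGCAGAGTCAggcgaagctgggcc
MCOLN1: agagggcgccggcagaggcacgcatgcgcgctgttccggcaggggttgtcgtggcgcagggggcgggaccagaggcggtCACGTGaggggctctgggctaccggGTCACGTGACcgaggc
CTSD: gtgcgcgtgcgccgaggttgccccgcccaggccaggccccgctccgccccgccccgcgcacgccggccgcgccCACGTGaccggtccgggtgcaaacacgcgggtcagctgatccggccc
LAMP1: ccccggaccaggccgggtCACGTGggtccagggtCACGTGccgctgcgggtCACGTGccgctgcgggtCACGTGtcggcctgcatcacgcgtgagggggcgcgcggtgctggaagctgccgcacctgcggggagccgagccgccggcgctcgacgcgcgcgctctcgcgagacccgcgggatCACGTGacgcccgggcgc

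Both strands were searched in every RefSeq promoter window of 27305 genes, and a gene with several windows counted if any of them held the motif. The E-box core stood in 7 of 36 members (19.4%), namely ATG14, ATG3, ATP6V0D1, CTSA, CTSD, LAMP1 and MCOLN1, and in 8.77% of all genes. The CLEAR element stood in 1 member, MCOLN1, and in 0.421% of all genes. The antioxidant response core stood in 8 of 36 members (22.2%), namely ATP6V0D1, CALCOCO2, CTSA, CTSD, CTSL, GLA, LAMP1 and MAP1LC3B, and in 16.1% of all genes. Of these 8, only CTSL and MAP1LC3B were called with IKE, both in PANC-1. No match to this core was listed for SQSTM1, PLEKHM1, PHB2 or ATP6V0E1, further genes called with IKE that are described below. Whether RefSeq gave their windows is not known here. The element TGATGNAA, which ATF4 and C/EBP factors bind, stood in 0 of 36 members and in 4.46% of all genes. None of the 7 members with an E-box core was called with IKE in either line. Of all 44 members only 2 were called in PANC-1 and 0 in CFPAC-1, too few to set against a motif. The log2 fold changes of the 7 members with an E-box core ran in PANC-1 from 0.069 for ATG3 to 0.24 for ATP6V0D1. In CFPAC-1 they ran from -0.26 for ATG3 to 0.13 for ATG14. These matches describe letters in a window and not bound sites.

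In PANC-1 cells that survived 1 µM IKE, 2 of the 44 genes rose and 0 fell. They were MAP1LC3B, which encodes the ATG8 protein LC3B that is coupled to the autophagosome membrane, and CTSL, which encodes the lysosomal protease cathepsin L. That is 4.55% of the members, beside 2.38% of all 13077 tested genes, of which 1.21% were higher and 1.17% lower. At an unadjusted p under 0.05 (limma), 11 members (25%) were higher and 1 (2.27%) was lower, beside 8.37% and 9.25% of all tested genes. These shares are a description, because the list was chosen with earlier results of these data known. The median log2 fold change of the 44 genes was 0.099, with 32 above 0 and 12 below, against a median of -0.0063 over all tested genes. Every IKE library lay above both DMSO libraries for 11 members and below both for 3, beside 12.3% and 13.6% of all tested genes.

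MAP1LC3B (ENSG00000140941, chromosome 16, 87383995 to 87404779, GRCh38) had 56.2, 48.9, 46.2 and 56.7 FPKM in the PANC-1 IKE libraries and 39.5 and 39.4 FPKM in the PANC-1 DMSO libraries. All 4 IKE libraries were above both DMSO libraries (log2 fold change 0.38, SE 0.083, adjusted p = 0.0384, limma). In CFPAC-1 the same gene had 25.1 and 25.5 FPKM with IKE and 22.4 and 22.6 FPKM with DMSO, again without overlap, but was not called (log2 fold change 0.16, SE 0.096, adjusted p = 0.526). The PANC-1 call held when PANC-1 IKE replicate 2 or 3 was left out, and was lost when any other single library was left out, with an adjusted p of up to 0.239. MAP1LC3B2, a near-identical copy that can share its reads, was listed at no more than 0.58 FPKM in any library.

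CTSL (ENSG00000135047, chromosome 9, 87725519 to 87731393) had 27.7, 28.6, 28.4 and 30.4 FPKM in the PANC-1 IKE libraries and 21.3 and 23.1 FPKM in the PANC-1 DMSO libraries. Its IKE libraries also lay above both DMSO libraries (log2 fold change 0.36, SE 0.067, adjusted p = 0.0202, limma). In CFPAC-1 it had 56.8 and 57.8 FPKM with IKE and 43.4 and 48.3 FPKM with DMSO, with a log2 fold change of 0.32 (SE 0.077) that was not called (adjusted p = 0.078). The difference between the responses of the lines was not called (PANC-1 minus CFPAC-1 0.044, 95% interval -0.18 to 0.27, adjusted p = 0.902). The PANC-1 call was lost without PANC-1 DMSO replicate 1 (adjusted p = 0.232), DMSO replicate 2 (0.0781) or IKE replicate 4 (0.0506).

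**Figure D1:**
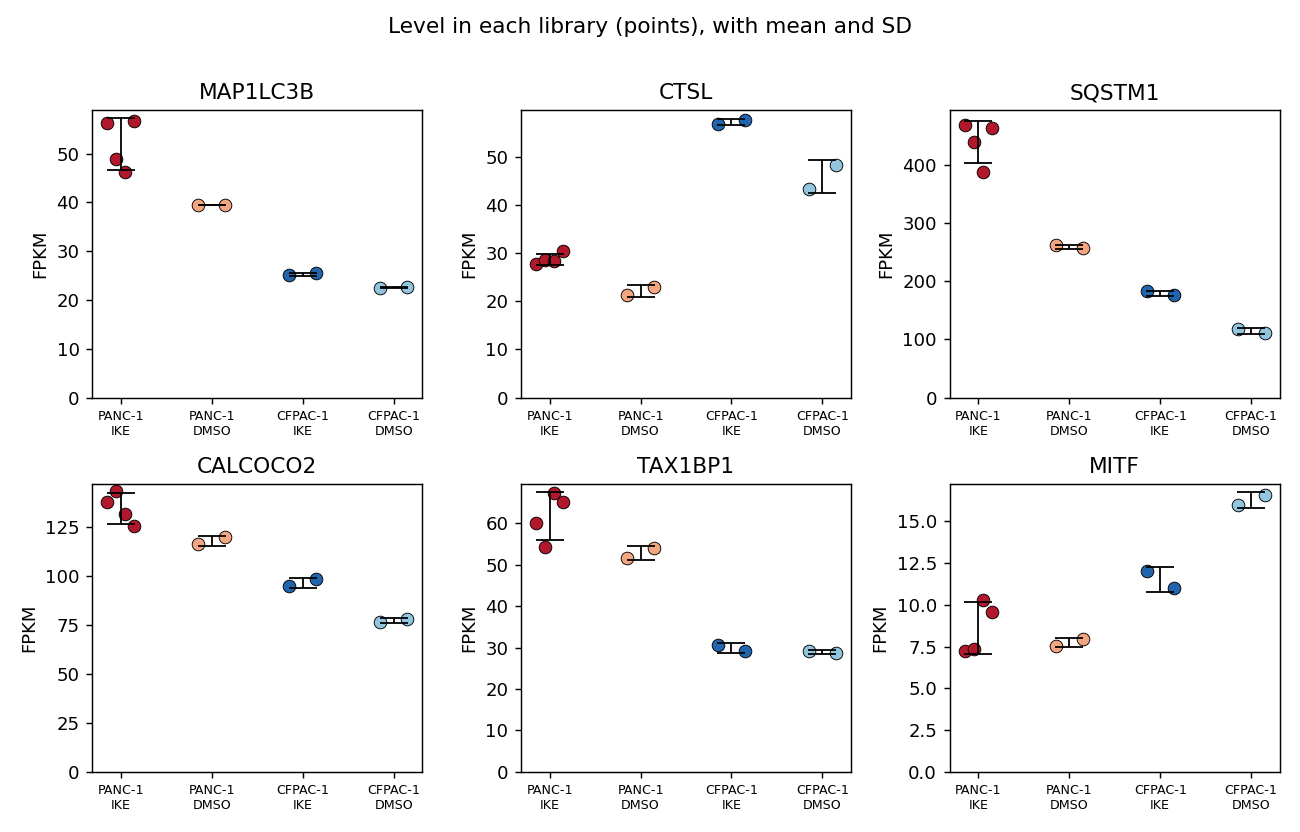
FPKM of 6 genes in each library (points, vertical axis from 0), by line and treatment, with mean and SD as bars. For MAP1LC3B, CTSL, SQSTM1 and CALCOCO2 each IKE library lies above each DMSO library of its line, while TAX1BP1 does so in PANC-1 alone and MITF lies below DMSO in CFPAC-1 alone.

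Among the genes that start the autophagosome, none was called with IKE in PANC-1. ULK1, the starter kinase, had 11.6, 12.96, 10.9 and 11.9 FPKM in PANC-1 IKE libraries and 10.5 and 9.74 FPKM in DMSO libraries, with each IKE library above both DMSO libraries (log2 fold change 0.20, adjusted p = 0.334). Its relative ULK2 and its partners RB1CC1 and ATG13 had overlapping libraries and log2 fold changes from -0.030 to 0.048. Of the lipid kinase complex, ATG14, the subunit that targets it to autophagosome formation, was at 0.21, UVRAG at 0.16, the scaffold BECN1 at -0.0052 and the kinase PIK3C3 at -0.18. WIPI2, which reads the lipid and recruits the conjugation machinery, was at 0.23 (adjusted p = 0.257), WIPI1 at 0.11, and the lipid transfer gene ATG2A and the membrane carrier gene ATG9A within 0.01 of 0. ATG9A read 50.8 FPKM in PANC-1 IKE replicate 2, against 41.7 to 41.9 FPKM in the other IKE replicates. The 8 conjugation genes ATG3, ATG4A, ATG4B, ATG5, ATG7, ATG10, ATG12 and ATG16L1, which attach ATG8 proteins to lipid or free them again, ran from -0.095 to 0.13, and the libraries overlapped for all 8.

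The cargo receptors, which bind both ATG8 proteins and cargo, were all above 0 in PANC-1, and 0 of 4 were called. CALCOCO2, the NDP52 receptor for bacteria and damaged mitochondria, had 138, 144, 132 and 125 FPKM with IKE and 116 and 120.0 FPKM with DMSO (log2 fold change 0.19, adjusted p = 0.143). TAX1BP1 had 60.02, 54.3, 67.3 and 65.2 FPKM with IKE and 51.5 and 53.9 FPKM with DMSO (log2 fold change 0.22, adjusted p = 0.192). For both genes each IKE library was above both DMSO libraries, as it was for OPTN (0.21, adjusted p = 0.135), but not for NBR1 (0.046). Of all tested genes 12.3% were apart upward in PANC-1. TAX1BP1 was called without PANC-1 IKE replicate 2 (adjusted p = 0.0412).

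Of the other ATG8 genes in PANC-1, GABARAPL1 had the highest log2 fold change of all 44 genes, 0.43, but also a wide spread (SE 0.17, adjusted p = 0.221). Its IKE libraries had 17.4, 14.4, 13.2 and 15.8 FPKM and its DMSO libraries 8.92 and 13.4 FPKM, so the groups overlapped. GABARAP, the most abundant ATG8 mRNA in FPKM, had 130.5, 138, 116 and 121 FPKM with IKE and 110.4 and 111 FPKM with DMSO (log2 fold change 0.18, adjusted p = 0.208). All of its IKE libraries were above both DMSO libraries. MAP1LC3A (0.14) and GABARAPL2 (-0.077) had overlapping libraries.

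Among the transcription factors in PANC-1, TFEB was low, with 1.96, 1.91, 1.79 and 1.54 FPKM with IKE and 2.12 and 2.36 FPKM with DMSO. Its IKE libraries all lay below the DMSO libraries, and it had the lowest log2 fold change of the 44 genes (-0.21, adjusted p = 0.27). TFE3 was at 0.089. MITF had 7.22, 7.35, 10.3 and 9.54 FPKM with IKE, with replicates 3 and 4 above replicates 1 and 2, and 7.55 and 7.95 FPKM with DMSO (0.12, adjusted p = 0.691). The lysosomal membrane genes LAMP1 (0.11), LAMP2 (0.19) and the calcium channel gene MCOLN1 (0.11) were not called. LAMP2 had 79.5, 80.5, 87.1 and 84.98 FPKM with IKE and 70.5 and 74.8 FPKM with DMSO, without overlap (adjusted p = 0.118).

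The lysosomal enzyme genes other than CTSL were not called in PANC-1. The protease genes CTSA, CTSB and CTSD were at 0.087, -0.084 and 0.15, and the glycosidase genes HEXA and GLA at 0.077 and 0.17. Of the proton pump that acidifies the lysosome, ATP6V0D1 had 43.2, 47.2, 42.6 and 45.3 FPKM with IKE and 38.1 and 37.2 FPKM with DMSO, without overlap (log2 fold change 0.24, SE 0.063, adjusted p = 0.0765). ATP6V1H was at 0.23 and ATP6V1A at -0.023. Over all 44 genes the 95% intervals of the PANC-1 changes reached from -0.42 to 0.81 on the log2 scale.

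**Figure D2:**
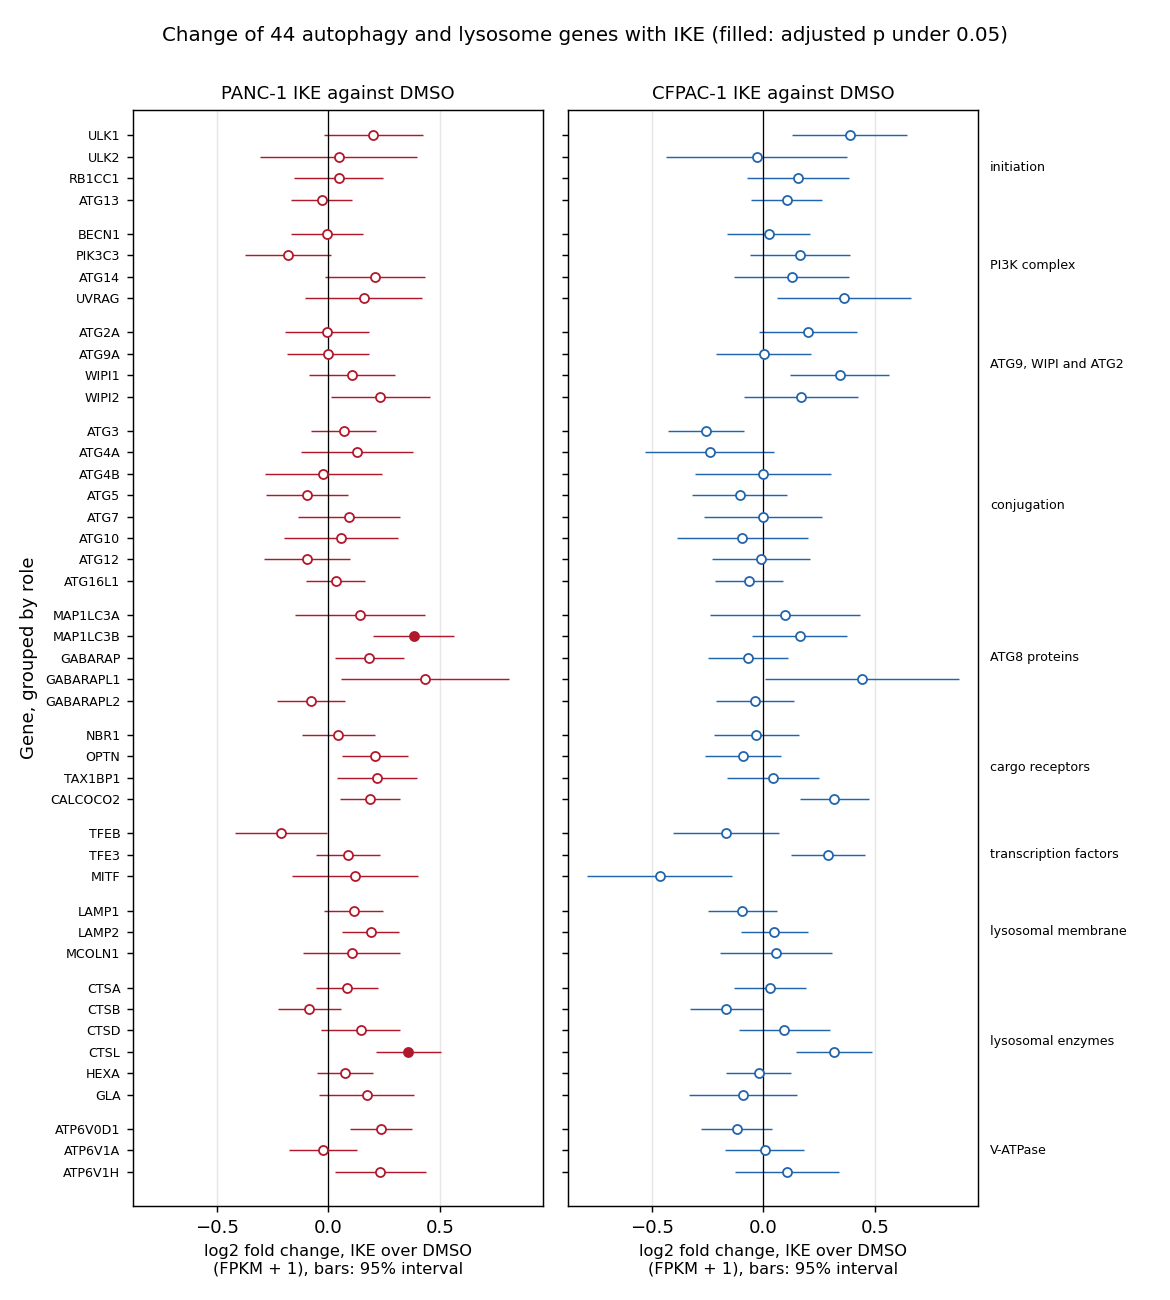
Log2 fold change (FPKM + 1) of the 44 genes with IKE over DMSO in PANC-1 (left) and CFPAC-1 (right), grouped by role, with 95% intervals as bars and filled points for an adjusted p under 0.05. The filled points are MAP1LC3B and CTSL in PANC-1, CFPAC-1 has 0 filled points, and all 8 conjugation genes lie below 0 in CFPAC-1.

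Among the CFPAC-1 survivors of 10 µM IKE, 0 of the 44 genes were called in either direction by limma, beside 1.32% of all tested genes, of which 0.864% were higher and 0.459% lower. At an unadjusted p under 0.05, 7 members (15.9%) were higher and 3 (6.82%) were lower, beside 6.5% and 7.1% of all tested genes. The median log2 fold change was 0.014, with 24 genes above 0 and 20 below, against a median of 0 over all tested genes. Both IKE libraries lay above both DMSO libraries for 17 members and below both for 11, beside 23% and 23.9% of all tested genes. The 95% intervals of the 44 changes reached from -0.79 to 0.88, which limits what these libraries could show.

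The gene nearest to the threshold in CFPAC-1 was CALCOCO2. It had 94.8 and 98.4 FPKM with IKE and 76.5 and 78.1 FPKM with DMSO (log2 fold change 0.32, SE 0.071, adjusted p = 0.057, limma). The groups did not overlap, and the gene was called when PANC-1 IKE replicate 2 was left out (adjusted p = 0.0277). TFE3 had 15.4 and 15 FPKM with IKE and 12.6 and 11.9 FPKM with DMSO (log2 fold change 0.29, adjusted p = 0.0995). MITF had the most negative value, with 12.04 and 10.99 FPKM with IKE and 15.9 and 16.6 FPKM with DMSO (log2 fold change -0.47, SE 0.15, adjusted p = 0.179). TFEB was at -0.17. For each of these 3 factors the IKE and DMSO libraries were apart, upward for TFE3 and downward for MITF and TFEB. In CFPAC-1, 23% of all tested genes were apart upward and 23.9% downward.

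The starter and lipid binding genes stood mostly above 0 in CFPAC-1. ULK1 had 5.29 and 6.53 FPKM with IKE and 4.01 and 4.53 FPKM with DMSO (log2 fold change 0.39, adjusted p = 0.158). UVRAG had 15.2 and 13.8 FPKM with IKE and 10.2 and 11.9 FPKM with DMSO (0.36, adjusted p = 0.267), and WIPI1 had 8.79 and 8.83 FPKM with IKE and 6.48 and 7.01 FPKM with DMSO (0.34, adjusted p = 0.149). The groups did not overlap for these 3 genes, while 23% of all tested genes were likewise apart upward. ATG13, RB1CC1, BECN1, PIK3C3, ATG14, ATG2A, ATG9A and WIPI2 ran from 0.00081 to 0.20, and ULK2 was at -0.031.

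All 8 conjugation genes were below 0 in CFPAC-1, with a median of -0.080, and 0 of them were called (1 was lower at an unadjusted p under 0.05). Of all 13077 tested genes 6522 were below 0. The sign was not firm for every gene when the processing was varied or a library left out. ATG4B then ran from -0.24 to 0.23 and ATG7 from -0.18 to 0.18, while ATG12 reached 0.025 and ATG5 0.0065. ATG3, the enzyme that joins ATG8 proteins to lipid, had 19.8 and 20.6 FPKM with IKE and 24.2 and 24.6 FPKM with DMSO (log2 fold change -0.26, adjusted p = 0.152). ATG4A was at -0.24, and the others ran from -0.11 for ATG5 to -0.0031 for ATG4B. The IKE libraries were apart downward for ATG3, ATG4A, ATG10 and ATG16L1 and overlapped with DMSO for the other 4. Of all tested genes 23.9% were apart downward in CFPAC-1.

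Of the remaining members in CFPAC-1, GABARAPL1 had 10.6 and 15.9 FPKM with IKE, with replicate 2 well above replicate 1, and 9.49 and 9.15 FPKM with DMSO (log2 fold change 0.44, SE 0.20, adjusted p = 0.357). CTSB, the protease cathepsin B, had 133 and 126 FPKM with IKE and 141 and 149.7 FPKM with DMSO (-0.17, adjusted p = 0.358). MAP1LC3A, GABARAP and GABARAPL2 ran from -0.070 to 0.097, and the receptors NBR1, OPTN and TAX1BP1 from -0.091 to 0.045. LAMP1, LAMP2, MCOLN1, CTSA, CTSD, HEXA and GLA ran from -0.095 to 0.093, and ATP6V0D1, ATP6V1A and ATP6V1H from -0.12 to 0.11.

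Set side by side, ULK1, ATG14, MAP1LC3B, CALCOCO2, LAMP2 and CTSL had every IKE library above every DMSO library in both lines, and TFEB and CTSB had every IKE library below. PIK3C3, GABARAP, OPTN and ATP6V0D1 were apart in both lines but in opposite directions. The share of all tested genes apart in both lines was not counted, so these lists cannot be set against it. Within PANC-1, 12.3% of all tested genes were apart upward and 13.6% downward, and within CFPAC-1 23% and 23.9%. No member was called in both lines. Across the 44 genes the changes in the lines correlated with Pearson's r = 0.384 and Spearman's rho = 0.344, and across all 13077 genes with r = 0.212 and rho = 0.136. These are correlations across genes, which are not independent replicates, and no control library is shared between the lines.

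The test of the difference between the responses, PANC-1 minus CFPAC-1, called 0 of the 44 genes (limma), beside 0.336% of all tested genes. At an unadjusted p under 0.05, 6 were more positive in PANC-1, namely ATG3, GABARAP, OPTN, MITF, LAMP1 and ATP6V0D1, and 1, PIK3C3, was more negative, which is 13.6% and 2.27% beside 5.83% and 6.52% of all tested genes. The smallest p belonged to ATP6V0D1 (0.36, SE 0.096, adjusted p = 0.171), and the largest difference to MITF (0.59, SE 0.20, adjusted p = 0.257). The 44 differences had a median of 0.056, against -0.0070 over all tested genes, and 95% intervals that reached from -0.64 to 1.02. The IKE dose differs between the lines, so line and dose cannot be told apart here.

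The lines themselves differed by more than either changed with IKE: the median size of the log2 difference over the 44 genes was 0.62 between the lines, 0.11 with IKE in PANC-1 and 0.10 with IKE in CFPAC-1. Over all tested genes the same medians were 0.70, 0.10 and 0.10, so this was not particular to the 44 genes. With DMSO, 22 of the 44 genes were higher in PANC-1 than in CFPAC-1 and 14 were lower, which is 50% and 31.8%, and 8 were not called. Of all tested genes 43.4% were higher and 35.2% lower, 78.7% in all against 81.8% of the members, so the members' share was close to that of all genes. The libraries of PANC-1 lay above both of CFPAC-1 for 24 members and below for 16, beside 49% and 40.3% of all tested genes. The median log2 difference was 0.23, against 0.12 over all tested genes, and 12 called members differed by at least 1 on the log2 scale. Median-ratio scaling of the libraries moved the median of all genes by -0.12 in this comparison and gave 20 members higher (LAMP1 and RB1CC1 no longer called) and 16 lower (TFEB and ATP6V0D1 added). Every adjusted p in the comparison of the lines is from limma.

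Of the starter genes, ULK2 had the largest log2 difference of FPKM + 1 of all 44 genes. That rank depended on the processing. When it was varied or a library left out, ULK2 reached at most 2.47, while the low gene MAP1LC3A reached 3.31. ULK2 had 13.9 and 20.3 FPKM in PANC-1 DMSO libraries and 3.48 and 2.49 FPKM in CFPAC-1 DMSO libraries (log2 difference 2.17, SE 0.18, adjusted p = 5.36e-07). ULK1 was also higher, with 10.5 and 9.74 FPKM in PANC-1 and 4.01 and 4.53 FPKM in CFPAC-1 (1.08, adjusted p = 4.73e-06). ATG13, an adaptor of that kinase, was lower, with 20.1 and 19.9 FPKM in PANC-1 and 27.3 and 27.4 FPKM in CFPAC-1 (-0.43, adjusted p = 0.000171). RB1CC1, its scaffold, was just past the threshold (0.25, adjusted p = 0.0493). Leaving out any single library except PANC-1 IKE replicate 2 or 4 ended that call (adjusted p up to 0.156).

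In the lipid kinase complex, 2 of 4 genes were lower in PANC-1 and 1 was higher, beside 35.2% and 43.4% of all tested genes. BECN1 had 19.8 and 21.9 FPKM in PANC-1 and 38.5 and 40.3 FPKM in CFPAC-1 (log2 difference -0.89, adjusted p = 1.45e-06). ATG14 had 4.63 and 4.51 FPKM in PANC-1 and 10.7 and 11.1 FPKM in CFPAC-1 (-1.09, adjusted p = 4.23e-06). UVRAG, which directs the complex to later trafficking steps, was higher (0.49, adjusted p = 0.0064) but not called without CFPAC-1 DMSO replicate 1 (adjusted p = 0.0605), and PIK3C3 was not called (-0.079). BECN1 and ATG14 thus stood on one side and UVRAG on the other.

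Of the membrane supply genes, ATG9A had 44.3 and 43.7 FPKM in PANC-1 and 28 and 26.3 FPKM in CFPAC-1 (log2 difference 0.68, adjusted p = 4.78e-05). WIPI2 had 28.7 and 29.9 FPKM in PANC-1 and 18.1 and 21.4 FPKM in CFPAC-1 (0.55, adjusted p = 0.00102). WIPI1 was higher too (0.41) and ATG2A lower (-0.45), all 4 of them called, beside 78.7% of all tested genes.

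Among the conjugation genes, 5 of 8 (62.5%) were higher in PANC-1 and 1 (12.5%) was lower, beside 43.4% and 35.2% of all tested genes. ATG5, a component of the ATG12-ATG5 conjugate that acts as the ligase, had 27.1 and 27.9 FPKM in PANC-1 and 8.96 and 10.7 FPKM in CFPAC-1 (log2 difference 1.40, adjusted p = 9.19e-08). ATG16L1, which brings that ligase to the membrane, had 20.3 and 21.1 FPKM in PANC-1 and 36.8 and 39.7 FPKM in CFPAC-1 (-0.85, adjusted p = 4.00e-07). ATG5 was thus high where ATG16L1 was low, with no overlap of the libraries for either. ATG7, the activating enzyme, had 34.4 and 39.9 FPKM in PANC-1 and 20.6 and 26.8 FPKM in CFPAC-1 (0.64, adjusted p = 0.000455). ATG3 had 34.8 and 38.02 FPKM in PANC-1 and 24.2 and 24.6 FPKM in CFPAC-1 (0.56, adjusted p = 3.61e-05). Both were higher in each PANC-1 library. The protease gene ATG4A had 13.7 and 10.97 FPKM in PANC-1 and 8.33 and 6.99 FPKM in CFPAC-1 (0.62, adjusted p = 0.00105), and ATG10, which loads ATG12 onto ATG5, had 8.96 and 10.9 FPKM in PANC-1 and 6.07 and 5.98 FPKM in CFPAC-1 (0.64, adjusted p = 0.00099). ATG4B and ATG12 were not called (0.15 and 0.22).

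The ATG8 genes differed in make-up more than in sum. Their 5 levels summed to 193 ± 5.22 FPKM in PANC-1 and 172 ± 5.25 FPKM in CFPAC-1 with DMSO (SD, n = 2 each). MAP1LC3B had 20.5 ± 0.568% of that sum in PANC-1 and 13.1 ± 0.456% in CFPAC-1, and GABARAPL2 had 14.5 ± 0.681% in PANC-1 and 23.5 ± 0.589% in CFPAC-1. GABARAP held 57.5 ± 1.15% in PANC-1 and 57.9 ± 1.10% in CFPAC-1, the largest share in both. By gene, MAP1LC3B was higher in PANC-1 (log2 difference 0.78, adjusted p = 1.35e-05). MAP1LC3A had 3.99 and 2.90 FPKM in PANC-1 and 0.230 and 0.280 FPKM in CFPAC-1 (1.81, adjusted p = 5.27e-07). GABARAPL2 was lower, with 26.6 and 29.5 FPKM in PANC-1 and 40.6 and 40.3 FPKM in CFPAC-1 (-0.52, adjusted p = 9.46e-05). GABARAP (0.15) and GABARAPL1 (0.21) were not called. With IKE, MAP1LC3B made up 23.2 ± 1.91% of the sum in PANC-1 (n = 4) and 14.6 ± 0.0832% in CFPAC-1 (n = 2), each IKE library above each DMSO library of its line. In PANC-1 the margin was narrow, with 20.93% in IKE replicate 2 and 20.85% in DMSO replicate 1.

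**Figure D3:**
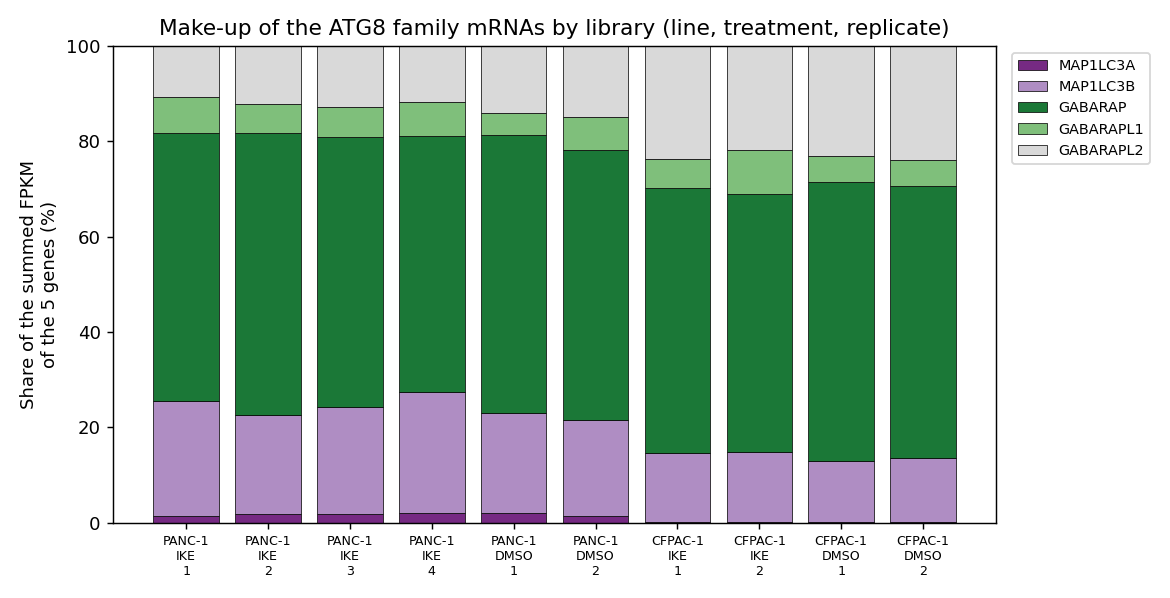
Share of the summed FPKM of the 5 ATG8 genes held by each gene (stacked bars, %), in each library. GABARAP holds the largest share in every library, MAP1LC3B holds more in every PANC-1 library than in any CFPAC-1 library, and GABARAPL2 holds less.

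Of the 4 cargo receptors, 2 were higher and 2 lower in PANC-1, beside 43.4% and 35.2% of all tested genes. NBR1, a receptor for ubiquitin-tagged cargo, had 22.2 and 20.2 FPKM in PANC-1 and 83.1 and 81.7 FPKM in CFPAC-1 (log2 difference -1.91, SE 0.086, adjusted p = 2.16e-09). OPTN, a receptor in mitophagy, had 12.5 and 13.8 FPKM in PANC-1 and 43.4 and 41.9 FPKM in CFPAC-1 (-1.62, adjusted p = 3.41e-09). Both were low in PANC-1. TAX1BP1 had 51.5 and 53.9 FPKM in PANC-1 and 29.3 and 28.7 FPKM in CFPAC-1 (0.84, adjusted p = 5.96e-06). CALCOCO2 had 116 and 120.0 FPKM in PANC-1 and 76.5 and 78.1 FPKM in CFPAC-1 (0.61, adjusted p = 8.74e-06). The order of the 4 receptors in FPKM was CALCOCO2, TAX1BP1, NBR1 and OPTN in PANC-1, but NBR1, CALCOCO2, OPTN and TAX1BP1 in CFPAC-1, where NBR1 and CALCOCO2 lay close together.

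Of the 3 transcription factors, 1 was higher and 1 lower in PANC-1, beside the same 43.4% and 35.2% of all tested genes. TFE3 was the highest of the 3 in PANC-1, with 21.4 and 22.2 FPKM in PANC-1 and 12.6 and 11.9 FPKM in CFPAC-1 (log2 difference 0.78, adjusted p = 1.67e-06). MITF had 7.55 and 7.95 FPKM in PANC-1 and 15.9 and 16.6 FPKM in CFPAC-1 (-0.98, adjusted p = 7.68e-05) and was the highest of the 3 in CFPAC-1. TFEB was the lowest in both and was not called (-0.23, adjusted p = 0.0662). Its sign was positive after quantile normalization.

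All 3 lysosomal membrane genes among the members were higher in PANC-1, beside 43.4% of all tested genes. This did not extend to the wider list described below. Of its 21 lysosomal membrane genes, 8 (38.1%) were higher and 12 (57.1%) lower. LAMP2 had 70.5 and 74.8 FPKM in PANC-1 and 31.96 and 32.6 FPKM in CFPAC-1 (log2 difference 1.15, adjusted p = 2.18e-08). MCOLN1, the gene with the CLEAR element shown above, had 5.27 and 4.43 FPKM in PANC-1 and 2.80 and 3.18 FPKM in CFPAC-1 (0.55, adjusted p = 0.000913). LAMP1 differed less (0.25, adjusted p = 0.00678). It was not called with median-ratio scaling (adjusted p = 0.124) or without PANC-1 DMSO replicate 2 (adjusted p = 0.0706).

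Of the 6 lysosomal enzymes, 2 (33.3%) were higher and 4 (66.7%) lower in PANC-1, beside 43.4% and 35.2% of all tested genes. CTSD, the protease cathepsin D, had the highest level of all 44 genes in PANC-1, with 414 and 402 FPKM in PANC-1 and 142 and 148 FPKM in CFPAC-1 (log2 difference 1.49, SE 0.093, adjusted p = 3.67e-08). GLA, the enzyme missing in Fabry disease, had 56.2 and 49.8 FPKM in PANC-1 and 19.5 and 20.9 FPKM in CFPAC-1 (1.35, adjusted p = 4.14e-07). These were the higher ones. HEXA, the enzyme missing in Tay-Sachs disease, had 50 and 50.7 FPKM in PANC-1 and 113 and 118 FPKM in CFPAC-1 (-1.18, adjusted p = 1.41e-08). CTSL was lower as well (-1.02, adjusted p = 2.14e-07), and CTSA had 76.99 and 76.5 FPKM in PANC-1 and 113 and 111 FPKM in CFPAC-1 (-0.54, adjusted p = 3.16e-05). CTSB was lower by a smaller amount (-0.32, adjusted p = 0.00202). Of the proton pump genes, ATP6V1A had 45.9 and 45.6 FPKM in PANC-1 and 68.6 and 72.9 FPKM in CFPAC-1 (-0.62, adjusted p = 2.39e-05), while ATP6V0D1 (-0.17, adjusted p = 0.0527) and ATP6V1H (-0.083) were not called.

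**Figure D4:**
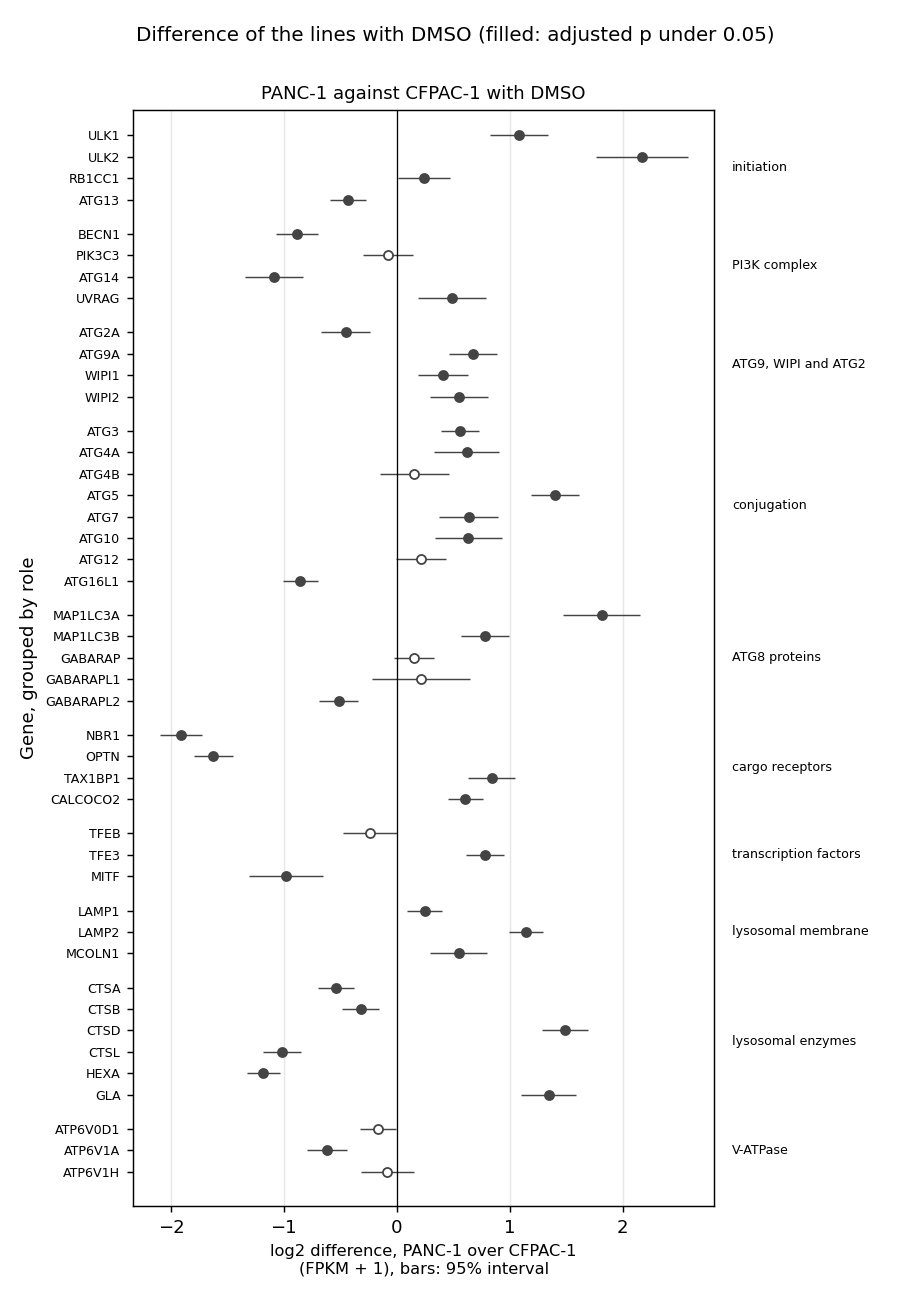
Log2 difference (FPKM + 1) of the 44 genes between PANC-1 and CFPAC-1 with DMSO, grouped by role, with 95% intervals as bars and filled points for an adjusted p under 0.05. The values run from -1.91 for NBR1 to 2.17 for ULK2, with 22 filled points above 0 and 14 below.

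A wider list of 143 further autophagy and lysosome genes, also chosen with earlier results of these data known, held 136 that were tested. In PANC-1, 4 of them rose with IKE and 0 fell, with a median log2 fold change of 0.067. At an unadjusted p under 0.05, 23 (16.9%) were higher and 7 (5.15%) lower, beside the 8.37% and 9.25% of all tested genes. In CFPAC-1, 1 rose and 0 fell, with a median of 0.044, and 18 (13.2%) were higher and 8 (5.88%) lower at an unadjusted p under 0.05, beside 6.5% and 7.1%. The called shares were 2.94% higher in PANC-1 and 0.735% higher in CFPAC-1, beside 1.21% and 0.864% of all tested genes. The difference of the responses called 0, and its 7 higher (5.15%) and 8 lower (5.88%) at an unadjusted p under 0.05 were near the 5.83% and 6.52% of all tested genes. With DMSO, 52 (38.2%) were higher and 57 (41.9%) lower in PANC-1 than in CFPAC-1, beside 43.4% and 35.2% of all tested genes.

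SQSTM1, the cargo receptor p62 and a partner of KEAP1, was called in both lines. It had 468, 439, 388 and 464 FPKM in PANC-1 IKE libraries and 262 and 256 FPKM in PANC-1 DMSO libraries (log2 fold change 0.76, SE 0.075, adjusted p = 0.00082, limma). In CFPAC-1 it had 183 and 176 FPKM with IKE and 117 and 111 FPKM with DMSO (0.65, SE 0.086, adjusted p = 0.00242). Both calls held in each of 20 alternatives, and the difference between the lines was not called (0.11, 95% interval -0.14 to 0.36). PLEKHM1, an adaptor for fusion with the lysosome, had 15.7, 15.6, 14.8 and 14.4 FPKM in PANC-1 with IKE and 10.4 and 9.27 FPKM with DMSO (0.58, adjusted p = 0.00254), and kept its call in each of 20 alternatives. ATP6V0E1, a proton pump subunit, had 102, 104, 104 and 102 FPKM with IKE and 85.04 and 82.1 FPKM with DMSO (0.30, adjusted p = 0.0187), and PHB2, an inner membrane mitophagy receptor, had 73.7, 72.5, 69.4 and 69.1 FPKM with IKE and 57.8 and 58.1 FPKM with DMSO (0.29, adjusted p = 0.0261). For all 4 genes each PANC-1 IKE library was above both DMSO libraries, as for 12.3% of all tested genes. The call of ATP6V0E1 was lost in 5 of 20 alternatives, namely without either PANC-1 DMSO replicate (adjusted p up to 0.142), with no intensity trend, with the replicate block and with IKE replicates 1 and 2 alone. That of PHB2 was lost in 9 of 20, namely in the same 5, with a fit per line, with IKE replicates 3 and 4 alone and without IKE replicate 1 or 4 (adjusted p up to 0.223). NCOA4, the ferritin receptor, is named for its role after its values were seen. It had 70.2, 73.95, 73.9 and 73.9 FPKM in PANC-1 with IKE and 70.7 and 67.6 FPKM with DMSO (0.077, 95% interval -0.045 to 0.20), and 68.2 and 64.4 FPKM in CFPAC-1 with IKE and 66.8 and 63.2 FPKM with DMSO (0.028, 95% interval -0.11 to 0.17), with overlap in both lines.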

How the data were processed

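RNA of 10 libraries was freed of rRNA and made into cDNA whose second strand was digested, per the labels' protocols. The authors deposited FPKM values per Ensembl gene. The submitters' processing notes name HISAT2 2.1.0, StringTie 1.3.4, Bowtie2 2.2.8, fastp 0.18.0 and DESeq2, and the build GRCh38. No source used here gives the annotation or says whether counting used strand. Exons of 21 of the 44 genes overlap exons of another gene in GENCODE 29 (those of MAP1LC3B overlap FBXO31, on the other strand), so these values are uncertain. The table holds no counts, so depth and counting error are unknown. It also has 9 empty columns, left out here.

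Values became log2(FPKM + 1), which understates changes of low genes, for the 13077 genes that reached 1 FPKM in 2 libraries or more. A single model over the 4 groups (limma 3.58.1, R 4.3.3, trend on mean intensity, 6 residual plus 5.1 prior degrees of freedom) gave two-sided tests, adjusted by Benjamini-Hochberg over all those genes. The code was tested on simulated data. The replicates are labelled bioreplicates, with no word on separate cultures, and p-values therefore measure the spread between these samples, which may be technical. The members and lists were chosen with earlier results of these data known. Called members are given in full (between the lines, the 30 with the smallest p), the others by role, and of the wider list the called genes with the smallest p, at most 5 per direction in each IKE comparison. The alternatives were a pseudocount of 0.1, no filter or one of 5 FPKM, quantile and median-ratio scaling, no trend, a replicate block, separate fits for the lines, either pair of PANC-1 IKE replicates, and each library left out. Promoter windows are from RefSeq, GRCh38.p14.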

Additional observations from a re-analysis of the deposited data

Results flagged for a closer look

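In PANC-1 with IKE, the one group of 4 libraries, 2 of 48 genes examined had a library that stood apart from the other 3. ATG9A read 50.8 FPKM in replicate 2, against 41.7, 41.9 and 41.8 FPKM in replicates 1, 3 and 4, a gap of 0.982 of the whole range. ATG10 read 12.5 FPKM in replicate 3, against 10.01, 9.55 and 9.58 FPKM in replicates 1, 2 and 4, a gap of 0.846 of the range. Both gaps were above Dixon's 95% limit for 4 libraries, which chance alone passes in about 1 in 20 groups. Neither gene was called with IKE.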

How the results depend on the processing

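No call of a member, and no call with IKE of the wider list's SQSTM1, PLEKHM1, ATP6V0E1 or PHB2, changed its direction under any alternative run. The wider list's calls between the lines were recomputed as counts only. In the comparison of the lines with DMSO, 33 of 36 member calls held in all 19 alternatives, the exceptions being RB1CC1, LAMP1 and UVRAG, and the members' median log2 difference was 0.104 with median-ratio scaling. The calls with IKE were less firm. The 2 members called higher in PANC-1 became 1 with no low-value filter, with no intensity trend or with a fit per line (CTSL), and 1 with PANC-1 IKE replicates 1 and 2 alone (MAP1LC3B). With replicates 3 and 4 alone they were CTSL and TAX1BP1. In CFPAC-1, 1 member (CALCOCO2) was called higher, in place of 0, with at least 5 FPKM, with quantile normalization, with a fit per line and with either pair of PANC-1 IKE replicates alone, and 1 (MITF) lower, in place of 0, with the last 3 of these. With PANC-1 IKE replicates 3 and 4 alone, 1 member (MITF) was called in the difference of the responses. Of the wider list, 2 were called higher in PANC-1 with no trend, 2 higher in CFPAC-1 with a fit per line or PANC-1 IKE replicates 3 and 4 alone, and 1 (at least 5 FPKM), 2 (quantile) or 1 (fit per line) lower in CFPAC-1. The cause was not tested.

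Leaving out each library in turn gave 0 to 3 members higher in PANC-1 (0 without PANC-1 DMSO replicate 1 or 2 or IKE replicate 4), 0 to 1 higher in CFPAC-1 and 0 in either direction for the difference. The counts between the lines were 20 to 24 members higher and 14 to 15 lower. Median log2 values ran from 0.078 to 0.12 in PANC-1, 0.013 to 0.045 in CFPAC-1, 0.014 to 0.11 for the difference and 0.22 to 0.27 between the lines. Of the wider list, 2 to 6 were higher in PANC-1, 1 to 2 higher and 0 to 1 lower in CFPAC-1, and 48 to 52 higher and 52 to 58 lower between the lines. A lone library is then assumed to vary like the other groups.

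Replicate numbers gave no sign of pairing the samples, which does not show that they were unpaired. The replicate 1 minus 2 differences of IKE and DMSO libraries correlated over genes with r = 0.049 in PANC-1 and -0.0015 in CFPAC-1. PANC-1 IKE replicates 3 and 4 have no DMSO library of the same number. With the replicate block, 0 members were called higher in PANC-1 and 1 in CFPAC-1. Alternatives that need counts were not run. Precision is limited by 2 libraries in 3 of the 4 groups.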
